A study of Mus musculus with 12 samples.

Results

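The 33 genes described here are markers of leucocytes, read in whole mouse pancreas by RNA sequencing. They were chosen by symbol: 7 genes of neutrophils, 13 of macrophages and monocytes, 12 of lymphoid cells (5 T cell, 6 B cell and 1 plasma cell gene) and Ptprc, which all leucocytes carry. The symbols were matched to the Ensembl identifiers of the count files, in which all 33 were found among 49585 listed genes. Of the 33, 30 had enough counts to be tested, together with 14329 genes in all, and Cd3e, Cd3g and Cd8a did not.

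The 12 libraries came from 12 mice aged 2 to 4 months, 3 per group, per the labels. Each mouse received 4 injections over 4 h of cerulein (50 ug/kg) or of saline, and the pancreas was taken at 4 h. Mice labelled Atf3-/-, congenic with C57Bl6, gave the cerulein libraries C2, C3 and L4 and the saline libraries S1, K4 and Q1. Wild-type C57Bl6 mice gave the cerulein libraries O1, O3 and N3 and the saline libraries W1, K5 and R3. Cerulein is an analogue of cholecystokinin that overstimulates acinar cells, and repeated injection is a standard way to induce acute pancreatitis in mice.

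In cerulein pancreatitis, injured acinar cells release chemokines, and neutrophils and then blood monocytes enter the tissue. Neutrophils arrive through receptors such as CXCR2, and monocytes leave the blood along gradients of CCL2, which they sense through CCR2. The resting pancreas already holds resident macrophages, marked by the receptor CSF1R, by complement C1q and by scavenger receptors. Lymphocytes are few within the healthy lobules and abundant in the lymph nodes and fat that lie against the gland.

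The promoters of 4 members are printed because their genes stand for the patterns below: Cd68, Mmp8 and Lck were called higher after cerulein in the average over both labels once 3 libraries were left out, and S100a9 followed single libraries. Each is the 250 bases before the RefSeq start on the gene's own strand (RefSeq table, GRCm38.p6), and no GENCODE exon lies in any of them. The windows are chr11:69666171-69666420 (minus strand) for Cd68, chr9:7558179-7558428 (plus) for Mmp8, chr4:129573642-129573891 (minus) for Lck and chr3:90695722-90695971 (minus) for S100a9. Capitals mark matches to TGANTCA (the AP-1 type) and to GAGGAA or its reverse complement TTCCTC (the type bound by PU.1, a transcription factor of myeloid and B cells).
Cd68: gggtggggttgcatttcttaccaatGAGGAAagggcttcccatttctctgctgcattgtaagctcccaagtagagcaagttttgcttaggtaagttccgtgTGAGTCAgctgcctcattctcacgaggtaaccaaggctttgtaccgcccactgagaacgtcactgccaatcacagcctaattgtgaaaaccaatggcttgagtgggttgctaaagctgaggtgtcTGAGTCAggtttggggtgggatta
Mmp8: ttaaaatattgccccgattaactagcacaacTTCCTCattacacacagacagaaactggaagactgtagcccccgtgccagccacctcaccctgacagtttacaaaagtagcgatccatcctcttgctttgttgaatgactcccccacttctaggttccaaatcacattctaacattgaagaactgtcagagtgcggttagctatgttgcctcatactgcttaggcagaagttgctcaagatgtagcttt
Lck: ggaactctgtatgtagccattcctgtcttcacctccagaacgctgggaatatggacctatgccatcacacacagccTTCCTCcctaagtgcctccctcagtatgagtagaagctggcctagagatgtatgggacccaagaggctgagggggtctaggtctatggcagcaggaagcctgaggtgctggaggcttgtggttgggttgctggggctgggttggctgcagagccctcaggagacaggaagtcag
S100a9: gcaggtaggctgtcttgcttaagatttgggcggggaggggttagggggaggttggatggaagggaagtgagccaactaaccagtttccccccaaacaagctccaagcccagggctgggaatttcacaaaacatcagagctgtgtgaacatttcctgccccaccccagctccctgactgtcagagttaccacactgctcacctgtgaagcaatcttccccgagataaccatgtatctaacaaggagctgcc

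The Cd68 window held 2 AP-1 type matches, whose first bases lie 149 and 24 bases before the start, and 1 PU.1 type match. The Mmp8 and Lck windows each held 1 PU.1 type match and no AP-1 type match, and the S100a9 window held neither. The TATA box type, TATAAA or TTTATA, matched none of the 4. No match overlapped another. Of the 33 members, 23 had an entry in the table, and 15 of these 23 held a PU.1 type match (first entry per gene), against 23.3% of all 32851 windows of this length. The AP-1 type matched in 1 of the 23, against 6.75% of windows, and the TATA box type in 2, against 12.4%. These are letter matches, not binding sites. No window is shown for Ccr2, the member called in wild type.

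Totals ran from 18292997 to 32158629 counts per library. As a check of the tissue, 10 acinar genes summed to between 287082 and 592742 CPM in every library (CPM is the count over the TMM-scaled library size, times 1e+06). N3 had the lowest sum, with L4 next (295659 CPM), and K4 (393020 CPM) had the lowest of the saline libraries. The bearing of this on the leucocyte levels was not tested. Apart from C3, Atf3 was not lower in the libraries labelled Atf3-/-. After cerulein it had 1375, 20.7 and 1636 CPM in C2, C3 and L4, against 775, 599 and 394 CPM in O1, O3 and N3. With saline it had 23.1, 7.44 and 13.5 CPM in S1, K4 and Q1, against 3.23, 1.13 and 5.28 CPM in W1, K5 and R3. Counts per gene do not show whether the protein is made. The library labelled C3 also stood apart from the other cerulein libraries. Of 4399 genes called between cerulein and saline in wild type, C3 lay nearer the wild-type cerulein mean for 6.87%, a share near that of the saline libraries. The genes and both means come from the 6 wild-type libraries, which fixes the position of those 6, so the comparators of C3 are C2 (89.7%) and L4 (91.5%), against S1, K4 and Q1 (3.66% to 5.48%). Member calls between cerulein and saline are therefore given with and without C3. Comparisons between the labels, the C1q fold changes under the Atf3-/- label and the averaged Cpa3 result are given with C3 only.

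A few patterns ran through the 33 genes. The levels of most followed 2 libraries, N3 (wild type, cerulein) and K4 (Atf3-/- label, saline), whatever the treatment. N3 was the highest of the 12 libraries for 25 of the 33 genes, against 10.4% of all genes tested, and K4 for 6, against 9.47%. N3 and K4 were the top 2 libraries for 24 of the 33, against 7.97% of all genes tested. The untested Cd3e, Cd3g and Cd8a are among the 25, and Cd3e is among the 24. With all 12 libraries, Ccr2 alone was called between cerulein and saline in wild type. No B cell gene was called, and all 6 were highest in N3.

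**Figure D1:**
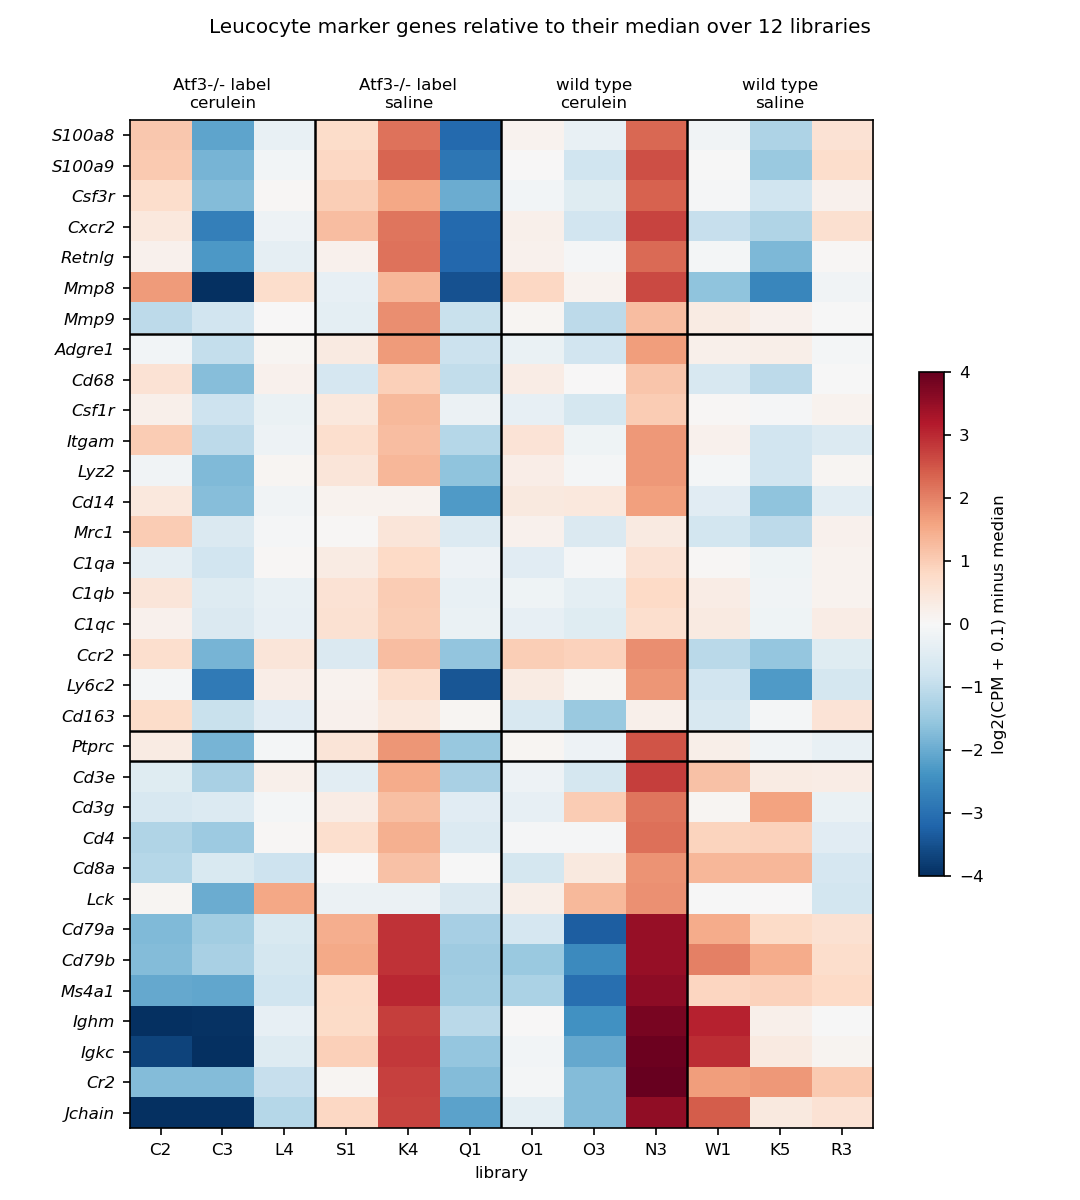
Heat map of the 33 leucocyte genes (rows, by class) in the 12 libraries (columns, by group), as log2(CPM + 0.1) minus each gene's median over the 12 libraries, with colours saturating at 4 in either direction. N3 and K4 are red across most rows, C3 and Q1 are blue across the neutrophil rows, and the B cell rows are blue in C2, C3 and O3.

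Among neutrophil genes, S100a8 and S100a9 encode the subunits of calprotectin, an abundant cytoplasmic protein of these cells. S100a8 had 5.30, 3.87 and 24.3 CPM in the wild-type cerulein libraries O1, O3 and N3, against 4.40, 2.00 and 7.25 CPM in the wild-type saline libraries W1, K5 and R3. With the Atf3-/- label it had 10.4, 1.03 and 3.93 CPM in C2, C3 and L4 after cerulein, against 8.08, 22 and 0.477 CPM in S1, K4 and Q1 after saline. The groups overlapped under both labels, and the lowest library, Q1, and one of the highest, K4, shared a group. S100a9 moved with S100a8: its count was 1.14 to 1.95 times that of S100a8 in the 11 libraries with 10 or more S100a8 counts. The wild-type log2 fold change of S100a8 was 1.29 ± 1.12 (SE; edgeR adjusted p = 0.408).

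Csf3r (the receptor of G-CSF), Cxcr2 (the receptor of neutrophil chemokines) and Retnlg (a resistin-like protein of neutrophils) showed the same order, with N3 first, K4 second and Q1 last of the 12 libraries. Csf3r ran from 1.91 CPM in Q1 to 40.3 CPM in N3, Cxcr2 from 0.119 to 12.2 CPM, and Retnlg from 0.0596 to 6.72 CPM. Mmp9, a gelatinase also made by other cells, was highest in K4 (8.51 CPM) and lowest in C2 (1.06 CPM). None of the 7 neutrophil genes passed the test between cerulein and saline in wild type (edgeR, 0 of 7, against 30.7% of all genes; 0 at an unadjusted p under 0.05, against 6172 of 14329 genes; 0 by DESeq2 and by voom).

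Mmp8, the neutrophil collagenase (ENSMUSG00000005800, GRCm38 chr9:7558456-7568485, plus strand), departed from this order. It had 5.34, 3.34 and 19.3 CPM in O1, O3 and N3, against 0.905, 0.411 and 2.68 CPM in W1, K5 and R3, so the wild-type groups did not overlap. In the Atf3-/- labelled mice it had 9.97, 0.0938 and 4.92 CPM in C2, C3 and L4, against 2.34, 7.62 and 0.179 CPM in S1, K4 and Q1. The library C3 held 2 Mmp8 counts, and Q1 held 3. The wild-type log2 fold change was 2.77 ± 1.34 (edgeR adjusted p = 0.139), so Mmp8 did not pass the threshold of 0.05.

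Macrophage and monocyte genes gave the only call in wild type. Ccr2 (ENSMUSG00000049103, GRCm38 chr9:124101950-124113557, plus strand), the receptor through which monocytes sense CCL2, had 16.5, 15.7 and 30.3 CPM in O1, O3 and N3, against 3.88, 2.77 and 5.91 CPM in W1, K5 and R3. Every wild-type cerulein library lay above every wild-type saline library. Its log2 fold change was 2.31 ± 0.76 (SE, n = 3 per group; edgeR adjusted p = 0.0409). It was the 1 member called higher of 30 tested, against 17.9% of all genes tested, and no member was called lower, against 12.8% (30.7% in either direction). At an unadjusted p under 0.05 there were 2 members, against 6172 of all genes, DESeq2 called Ccr2 and Cd14, and voom called none (Ccr2 adjusted p = 0.0534). The call ended when any 1 of W1, K5, R3, O1, O3, N3 or S1 was left out (adjusted p from 0.0185 to 0.129 over the 12 omissions), and the fold change stayed between 1.93 and 2.65.

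Without overlap between the wild-type groups, 6 of the 30 tested members were higher after cerulein, namely Ccr2, Cd14, Cd68, Lck, Ly6c2 and Mmp8. Of all genes tested, 27.5% did so. No member was lower without overlap, against 24.9% of all genes. Cd14, the co-receptor for lipopolysaccharide, had 32.0, 32.7 and 75.6 CPM in O1, O3 and N3, against 17.7, 7.91 and 18.0 CPM in W1, K5 and R3 (log2 fold change 1.69 ± 0.68, adjusted p = 0.0804). Cd68, a lysosomal protein of phagocytes (ENSMUSG00000018774, GRCm38 chr11:69664213-69666153, minus strand), had 7.29, 6.05 and 12.9 CPM in O1, O3 and N3, against 3.75, 2.83 and 5.83 CPM in W1, K5 and R3 (1.08 ± 0.63, adjusted p = 0.218). Ly6c2, a surface antigen of inflammatory monocytes whose reads may be shared with the near-identical Ly6c1, had 2.03, 1.69 and 5.70 CPM in O1, O3 and N3, against 0.905, 0.257 and 0.945 CPM in W1, K5 and R3 (2.15 ± 1.04, adjusted p = 0.136).

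None of the C1q genes passed the test with all libraries. C1qa, C1qb and C1qc encode the 3 chains of complement C1q, and their wild-type log2 fold changes were 0.08 ± 0.31, 0.08 ± 0.40 and -0.12 ± 0.37 (adjusted p from 0.833 to 0.897). In Atf3-/- labelled mice they were -0.69 ± 0.31, -0.58 ± 0.40 and -0.76 ± 0.38 (edgeR adjusted p from 0.219 to 0.375). Without N3, C1qc was called lower in the average over both labels (-0.67 ± 0.24, edgeR adjusted p = 0.0468). In that fit 7 of 32 tested members were called lower, C1qc among them, against 16.3% of all genes. C1qb counts stayed within 1.02 and 1.41 times those of C1qc in all 12 libraries, and C1qa counts ran more widely, from 0.888 to 1.72 times. Csf1r, the receptor of the macrophage growth factor CSF1, had 10.1, 7.84 and 25.8 CPM in O1, O3 and N3, against 13.3, 12.4 and 14.1 CPM in W1, K5 and R3. Its gene model overlaps that of Hmgxb3 on the opposite strand, and the strand setting of the counting is not given in the sources used here.

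The mannose receptor gene Mrc1 and Cd163, the scavenger receptor of haemoglobin, were highest in C2 (52.7 and 22.1 CPM), and not in N3 or K4. Adgre1, which encodes F4/80, ran from 2.49 CPM in C3 to 16.2 CPM in K4, and Itgam (CD11b) from 1.43 CPM in Q1 to 11.3 CPM in N3. Lyz2, which encodes lysozyme and was the most abundant member per exon length (91.6 CPM per kb on average over the 12 libraries), ran from 29.2 CPM in C3 to 332 CPM in N3.

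**Figure D2:**
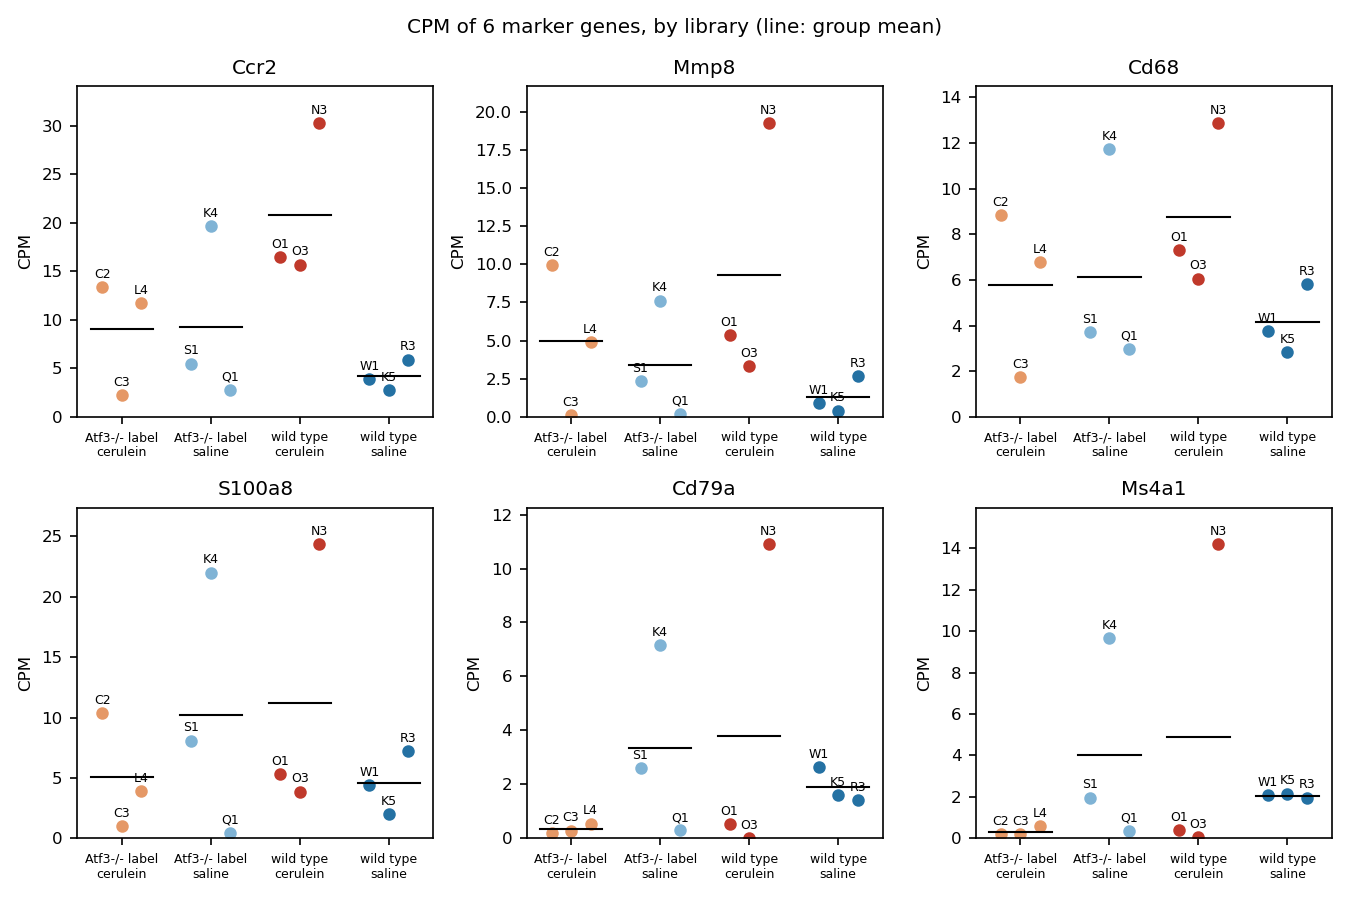
CPM (linear axes from 0) of Ccr2, Mmp8, Cd68, S100a8, Cd79a and Ms4a1 in the 12 libraries by group, each point 1 mouse and each line a group mean. Ccr2 lies between 15.7 and 30.3 CPM in wild-type cerulein and between 2.77 and 5.91 CPM in wild-type saline, while Cd79a and Ms4a1 are high in N3 and K4 alone.

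Because the level of a whole class changed between libraries, each gene was also expressed as a share of the summed counts of its class. This measure, chosen after the values were seen and read in part without C3, which was set aside for its lack of the wild-type response, is given as a description without a test, and 3 libraries against 3 could not reach an exact permutation p under 0.10. Mmp8 made up 16.8% of the 862 neutrophil counts in O1, 16.3% of 424 in O3 and 12.5% of 4358 in N3, against 3.54% of 395 in W1, 3.11% of 257 in K5 and 7.10% of 958 in R3. With the Atf3-/- label it made up 18.4%, 1.32% and 17.0% in C2, C3 and L4, against 4.95%, 6.67% and 3.66% in S1, K4 and Q1. The exact 95% binomial interval was 11.5% to 13.5% in N3, the lowest cerulein library other than C3, and 5.55% to 8.91% in R3, the highest saline library. These intervals cover counting error only.

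N3 and K4, which hold like levels of calprotectin genes, lay on opposite sides in the Mmp8 share. Of all genes tested, 0.649% were higher without overlap in the 5 cerulein libraries other than C3 than in the 6 saline libraries when divided by the neutrophil counts. Mmp8 was the 1 neutrophil gene of 7 that did so, and none was lower, against 0.97% of all genes. Genes outside the class take on the library differences of the divisor, which partly cancel for its members. Such shares of all genes, here and for the other classes below, are therefore no measure of enrichment. In the Mmp8 share, C3 lay below all 6 saline libraries, with 2 Mmp8 counts among 152 neutrophil counts.

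The same view of the 13 macrophage and monocyte genes separated treatment in both directions. Ccr2 was 6.09%, 7.01% and 4.81% of the class counts in O1, O3 and N3, against 1.76%, 1.77% and 2.31% in W1, K5 and R3. With the Atf3-/- label it was 4.52%, 2.09% and 4.86% in C2, C3 and L4, against 1.76%, 3.88% and 2.14% in S1, K4 and Q1. The nearest intervals were 4.07% to 5.01% in C2 and 3.53% to 4.25% in K4, which overlap. Cd14 took 9.23% to 14.6% in the 5 cerulein libraries without C3, against 3.90% to 8.61% in the 6 saline libraries. These 2 genes were the members of the class higher in cerulein without overlap, against 3.06% of all genes tested when divided by the same counts.

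Csf1r and C1qc went the other way. Csf1r took 3.5% to 4.97% in the 5 cerulein libraries, against 5.52% to 8.46% in the 6 saline libraries, and C1qc took 3.36% to 5.01%, against 5.21% to 8.5%. They were the 2 members lower without overlap, against 4.28% of all genes. In C3 the shares of Ccr2 (2.09%), Cd14 (6.95%), Csf1r (6.86%) and C1qc (8.28%) all lay within the range of the 6 saline libraries. Within wild type alone, Ccr2, Cd14 and Ly6c2 were higher without overlap, 3 of 13 against 4.66% of all genes. Csf1r, C1qb, C1qc and Cd163 were lower, 4 of 13 against 32.5%. Among the 12 lymphoid genes, no share separated the 5 cerulein from the 6 saline libraries (0.544% of all genes higher, 0.0209% lower). As above, the shares of all genes carry the library differences of the divisor, so members cannot be ranked against them. A share shows unequal change among the genes of a class, not which of them changed. In whole tissue, fewer cells of a type and less RNA per cell cannot be told apart.

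**Figure D3:**
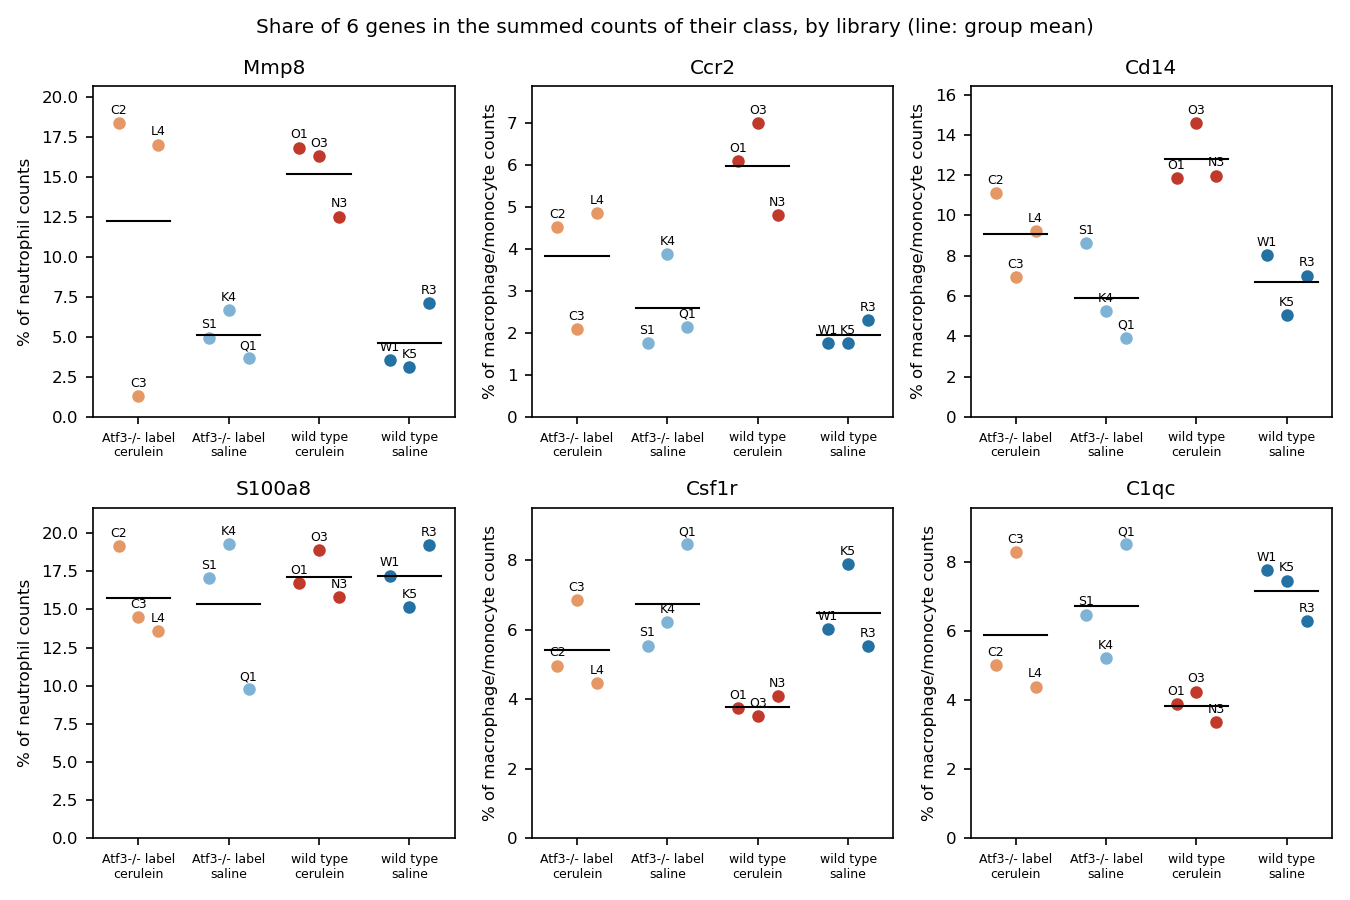
Share of Mmp8 and S100a8 in the summed neutrophil counts and of Ccr2, Cd14, Csf1r and C1qc in the summed macrophage and monocyte counts (percent, linear axes from 0), by library and group, with group means as lines. N3 lies with the other wild-type cerulein libraries for Mmp8 (12.5%) and Ccr2 (4.81%). C3 lies within the range of the saline libraries for Ccr2 and below it for Mmp8, and the S100a8 share does not separate the treatments.

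Ptprc, which encodes CD45, had 9.95, 8.23 and 54.5 CPM in O1, O3 and N3, against 11.1, 8.48 and 7.72 CPM in W1, K5 and R3. With the Atf3-/- label it had 11.9, 2.53 and 8.93 CPM in C2, C3 and L4, against 13.6, 32.3 and 3.22 CPM in S1, K4 and Q1. Outside N3, the wild-type cerulein values lay within the wild-type saline range. The wild-type log2 fold change was 1.42 ± 0.87 with N3 (adjusted p = 0.239) and -0.03 ± 0.64 without N3 and K4 (adjusted p = 0.975).

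The 6 B cell genes did not separate the treatments. Their summed level was 36.5, 7.36 and 556 CPM in O1, O3 and N3, against 305, 49.7 and 41.7 CPM in W1, K5 and R3. In mice with the Atf3-/- label it was 2.19, 2.72 and 29.0 CPM in C2, C3 and L4, against 71.0, 273 and 16.1 CPM in S1, K4 and Q1. The saline library Q1 lay below the cerulein libraries O1 and L4. Ms4a1, which encodes CD20 (ENSMUSG00000024673, GRCm38 chr19:11249675-11266241, minus strand), had 0.405, 0.0484 and 14.2 CPM in O1, O3 and N3, against 2.07, 2.16 and 1.97 CPM in W1, K5 and R3. Mice with the Atf3-/- label had 0.189, 0.188 and 0.599 CPM in C2, C3 and L4, against 1.97, 9.67 and 0.357 CPM in S1, K4 and Q1. Of the 6 cerulein libraries, 5 lay below every saline library other than Q1, and the remaining one, N3, lay above all.

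Cd79a and Cd79b encode the signalling chains of the B cell receptor. Cd79a had 0.516, 0 and 10.9 CPM in O1, O3 and N3, against 2.65, 1.59 and 1.42 CPM in W1, K5 and R3. Cd79b had 0.111, 0 and 6.51 CPM in O1, O3 and N3, against 2.26, 1.54 and 0.866 CPM in W1, K5 and R3. The 0 counts in O3 allow up to 0.147 CPM (3 counts of the library total). Cr2, the complement receptor of B cells, reached 5.56 CPM in library N3, reached 2.14 CPM in library K4, and stayed at or below 1.03 CPM in the other 10 libraries.

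The immunoglobulin genes added another library, W1. Ighm, the constant region of IgM, had 23.5, 4.31 and 325 CPM in O1, O3 and N3, against 199.7 CPM in W1, 27.1 CPM in K5 and 23.3 CPM in R3. With the Atf3-/- label it had 0.869, 1.41 and 18.7 CPM in C2, C3 and L4, against 40.0, 160 and 11.1 CPM in S1, K4 and Q1. W1 thus ranked second for Ighm, whereas its Cd79a level (2.65 CPM) was near that of S1 (2.60 CPM). Over the 8 libraries with 10 or more Cd79a counts, Ighm counts were 15.4 to 75.3 times those of Cd79a, with W1 at the top. Igkc, the kappa light chain, followed Ighm in every library, with 1 to 2.62 Ighm counts per Igkc count. Jchain, which joins IgM and IgA into polymers in plasma cells, was also highest in N3 (35.3 CPM), with K4 at 19.8 CPM and W1 at 16.1 CPM.

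T cell genes were scarce. Cd3e, Cd3g and Cd8a held 88, 68 and 57 counts over all 12 libraries, and Cd4 held 145. All 4 were highest in N3, at 1.56, 0.849, 0.672 and 1.77 CPM. Lck, a kinase of the T cell receptor (ENSMUSG00000000409, GRCm38 chr4:129548344-129573641, minus strand), did not follow K4. It had 1.03, 2.28 and 3.33 CPM in O1, O3 and N3, against 0.841, 0.873 and 0.473 CPM in W1, K5 and R3. Under the Atf3-/- label its level was 0.906, 0.141 and 2.71 CPM in C2, C3 and L4, against 0.712, 0.713 and 0.536 CPM in S1, K4 and Q1. All cerulein libraries other than C3 lay above all saline libraries. In the same libraries Cd3e had at most 1.56 CPM and was at 0.182 CPM in L4.

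The extent of the single-library pattern was counted by a fixed rule, in which a gene stands in N3 or K4 if that library has at least 2 times the CPM of the highest of the other 10 libraries. N3 met it for 17 of the 33 members, against 3.06% of all genes tested, and K4 for 9, against 1.65%. The untested Cd3e is among the 17. By class, N3 and K4 met it for 5 and 4 of 7 neutrophil genes, 4 and 1 of 13 macrophage and monocyte genes, and 7 and 3 of 12 lymphoid genes. Ptprc met it in both. The largest excess was that of Ms4a1, at 6.58 times in N3 and 4.48 times in K4. Ccr2 did not meet the rule: N3 had 1.84 times and K4 1.19 times the highest of the other 10, which was the cerulein library O1. Since the question was put for these 2 libraries with these genes' levels known, the counts describe the libraries and are no test.

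Summed over each class, neutrophil genes reached 154 CPM in N3 and 114 CPM in K4, against 4.89 to 54.3 CPM in the other 10 libraries. Macrophage and monocyte genes reached 631 and 507 CPM, against 105 to 312 CPM. Lymphoid genes reached 599 CPM in N3 and 296 CPM in K4, with W1 between them at 324 CPM and the other 9 between 3.10 and 77.9 CPM.

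**Figure D4:**
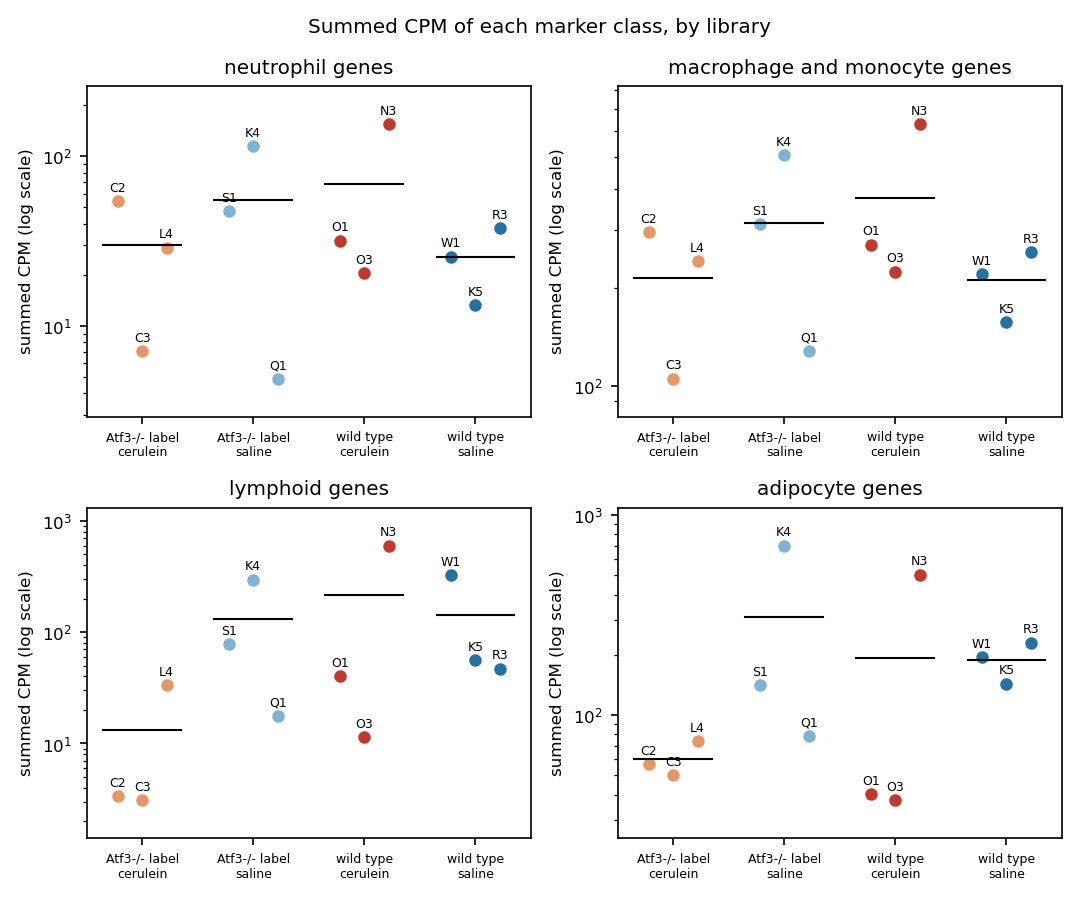
Summed CPM (log axes) of the 7 neutrophil, 13 macrophage and monocyte, 12 lymphoid and 10 adipocyte genes in the 12 libraries by group, with group means as lines. N3 and K4 are the highest libraries in every panel except lymphoid genes, where W1 (324 CPM) lies between N3 and K4, and the lowest lymphoid sums are in C2 and C3.

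Markers of a further tissue moved with the B cell genes. The 10 adipocyte genes listed with the leucocyte genes summed to 504 CPM in N3 and 703 CPM in K4, 142 to 230 CPM in S1, W1, K5 and R3, and 37.6 to 78.6 CPM in Q1, O1, O3, C2, C3 and L4. Adipoq, the hormone adiponectin of fat cells, stood at 59.1 CPM in library N3, at 68.3 CPM in library K4, and at or below 0.145 CPM in Q1, O1, O3, C2 and C3. Of the 10 adipocyte genes, K4 met the 2-fold rule for 7 and N3 for 4. None passed the wild-type test with all libraries, against 30.7% of all genes (edgeR; 0 at an unadjusted p under 0.05; 0 by DESeq2 and by voom). Without N3 and K4, 7 of the 10 were called lower after cerulein in wild type, against 8.24% of all genes. Of lymph node genes, Cxcl13, a B cell chemokine, had 108 CPM in N3 and 115 CPM in K4. The 8 lymph node genes listed summed to 109, 116, 47.3 and 41.4 CPM in N3, K4, S1 and W1, and to less elsewhere. Ccl19 was at 0 in all 12 libraries and Ccl21a in 11 of 12. How reads shared between genes were counted was not tested, so these 0 counts are not read as absence of lymph node tissue. The part of fat or lymphoid tissue in the leucocyte results was not tested.

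Leaving out N3 and K4, libraries picked out by these same genes, changed which members were called. In wild type, Cd79b and Ms4a1 were then lower after cerulein (2 of 30 members, against 8.24% of all genes; no member was higher, against 14.8%, and 23.1% were called in either direction), with log2 fold changes of -4.59 ± 1.24 (edgeR adjusted p = 0.0328) and -3.13 ± 0.92 (0.0403). The Cd79b value rests on 3 counts in O1 and 0 in O3. Ccr2 kept a log2 fold change of 1.90 ± 0.62 but was no longer called (adjusted p = 0.0547). Averaged over both labels, Ccr2 was higher (1.5 ± 0.45, adjusted p = 0.0353; 1 of 30 members, against 19.1% of all genes), and Cd79a, Cd79b and Ms4a1 were lower (3 of 30, against 13.1%; 32.2% in either direction).

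C3 was set aside for its position over genes called between cerulein and saline in wild type, Ccr2 among them, so calls made without it depend on the response that they test. Leaving out C3 alone, Ccr2 and Lck were called higher in wild type (2 members, against 21.3% of all genes) and in the average over both labels (2 members, against 26.8%). Without N3, K4 and C3, the wild-type calls were Ccr2 (1.89 ± 0.32, edgeR adjusted p = 0.00168), 1 member higher against 21.8% of all genes, and Cd79b and Ms4a1, 2 members lower against 18.7% (40.5% in either direction). That fit kept only O1 and O3 in wild-type cerulein, S1 and Q1 in Atf3-/- labelled saline, and C2 and L4 in Atf3-/- labelled cerulein. Its common biological coefficient of variation, the spread between libraries of a group, was 0.239, against 0.357 with all 12 libraries. Omitting the 3 libraries gave the cerulein response of the Atf3-/- labelled mice its only calls among the members. Ccr2 was higher by a log2 fold change of 1.54 ± 0.36 (adjusted p = 0.0126) and Cd68 by 1.16 ± 0.32 (0.0243), which is 2 of 30 members, against 17.0% of all genes (29.7% in either direction). In the average over both labels, 4 of 30 members were higher, against 26.2% of all genes. These were Ccr2 (1.71 ± 0.24, adjusted p = 0.000409), Cd68 (0.90 ± 0.22, 0.00679), Lck (1.31 ± 0.42, 0.0254) and Mmp8 (2.03 ± 0.67, 0.039). Cd79b (-3.45 ± 0.83, adjusted p = 0.00745), Ms4a1 (-2.35 ± 0.61, 0.0106) and Cd79a (-2.39 ± 0.79, 0.035) were lower, 3 of 30 against 24.3% (50.5% in either direction).

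**Figure D5:**
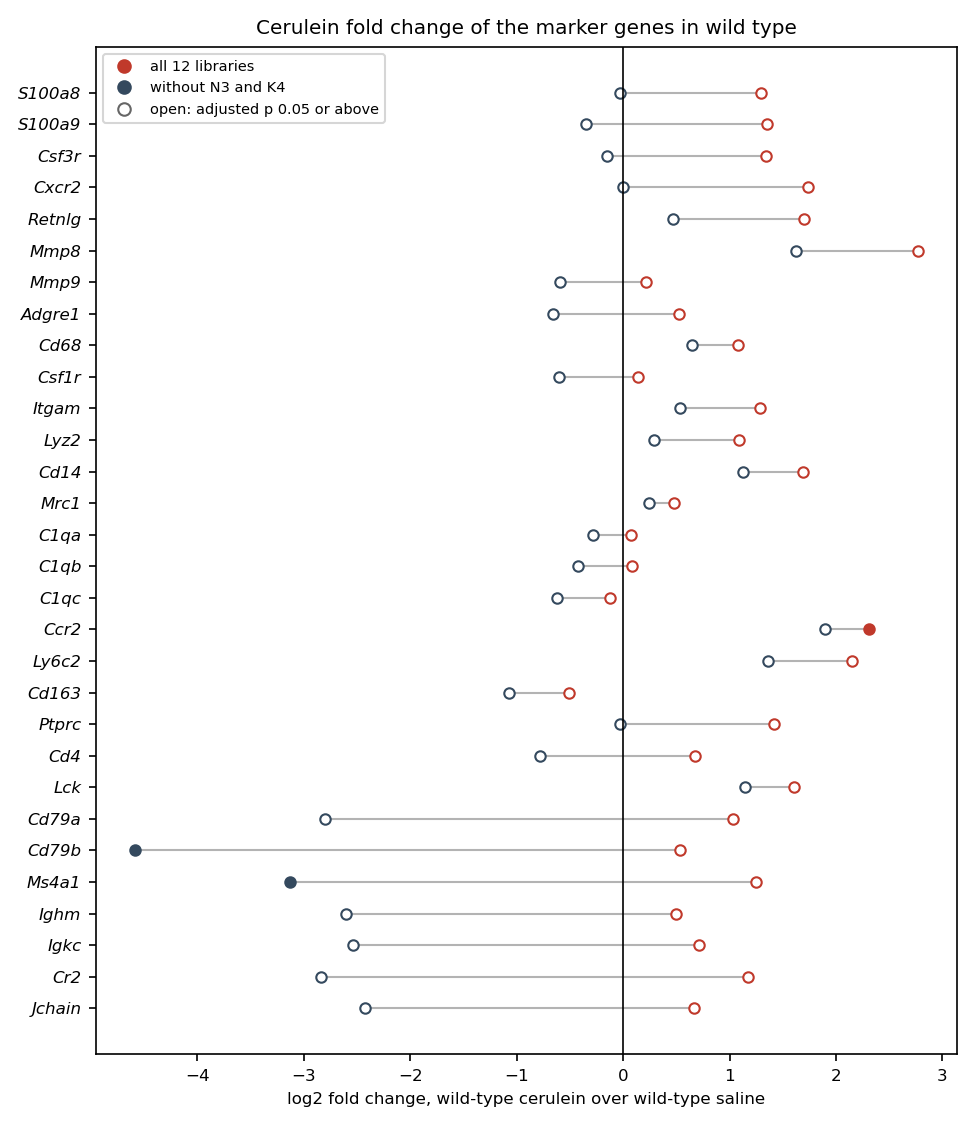
Log2 fold change of wild-type cerulein over wild-type saline (edgeR) for the 30 tested members, with all 12 libraries (red) and without N3 and K4 (dark), joined by a line; filled points have an adjusted p under 0.05. Ccr2 is filled with all libraries (2.31), and Cd79b and Ms4a1 cross from above 0 to -4.59 and -3.13 when N3 and K4 are left out.

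With all 12 libraries, no member passed the test between cerulein and saline in Atf3-/- labelled mice, where 0.0% of all genes were called by edgeR. By unadjusted p, 3 of 30 members lay under 0.05, against 3256 of all 14329 genes, and DESeq2 called 1359 genes but none of the members (1 of them without an adjusted p), and voom called no gene. The median log2 fold change of the 30 members was -0.96, with K4 in the saline group, and 0.10 without N3, K4 and C3. Averaged over both labels, 38.3% of all genes were called (22.8% higher, 15.5% lower) and 0 of 30 members (edgeR; 1 by unadjusted p; 0 by DESeq2 and by voom).

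Between the Atf3-/- label and wild type, no member was called after saline, after cerulein or in the difference of the cerulein responses, and neither was any other gene (0.0% in each, edgeR; DESeq2 called 0, 11 and 1 genes). By unadjusted p, the counts among the 30 members were 0, 8 and 3, against 60, 1146 and 594 of all 14329 genes, and DESeq2 and voom also called 0 members in each. After cerulein, the member with the lowest unadjusted p was Cr2, which had 0, 0 and 0.0781 CPM in C2, C3 and L4, against 0.221, 0 and 5.56 CPM in O1, O3 and N3 (adjusted p = 0.604). Without N3 and K4, none of the 30 members had an unadjusted p under 0.05 in any of these 3 comparisons.

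Further genes of the same cells were read from lists chosen with the earlier results known. Of 18 leucocyte recruitment signals, 17 were tested and 2 were called higher in wild type after cerulein, against 17.9% of all genes. Sele, the endothelial selectin that slows leucocytes, had 4.68, 2.81 and 6.26 CPM in O1, O3 and N3, against 0.647, 0.103 and 0.630 CPM in W1, K5 and R3 (log2 fold change 3.31 ± 1.07, adjusted p = 0.0389). Ccl2, the ligand of CCR2, had 60.4, 50.1 and 80.9 CPM in O1, O3 and N3, against 15.7, 3.54 and 7.25 CPM in W1, K5 and R3 (2.86 ± 0.94, adjusted p = 0.04). Ccl2 in the Atf3-/- labelled mice had 40.3, 9.61 and 53.3 CPM in C2, C3 and L4, against 25.7, 26.9 and 1.31 CPM in S1, K4 and Q1. Without N3 and K4 neither was called (adjusted p = 0.0941 for Sele and 0.0872 for Ccl2). N3 was the highest library for 17 of the 18 signals, yet none met the 2-fold rule in N3 or K4.

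Of 15 further neutrophil genes, 6 were tested and none was called in wild type (edgeR; 0 at an unadjusted p under 0.05; 0 by DESeq2 and by voom). In that comparison edgeR called 30.7% of all genes, and 6172 of 14329 had an unadjusted p under 0.05. Of 23 further macrophage, monocyte and dendritic cell genes, 21 were tested and none was called (1 at an unadjusted p under 0.05; 1 by DESeq2, Chil3; 0 by voom). Of 18 further B and T cell genes, 14 were tested and none was called with all libraries (0 at an unadjusted p under 0.05; 0 by DESeq2 and by voom). N3 met the 2-fold rule for 16 of these 18. Without N3 and K4, 4 of 13 tested were lower after cerulein in wild type, against 8.24% of all genes, among them Fcer2a, the IgE receptor of B cells (-4.28), and Ighd, the constant region of IgD (-4). Of 6 plasma cell genes, 5 were tested. Among them Sdc1, which epithelial cells also express, was higher in wild type with all libraries (4.09 ± 0.66, edgeR adjusted p = 0.00918), where 17.9% of all genes were called higher.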

How the data were processed

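Read counts per Ensembl gene were deposited for 12 libraries of whole pancreas, as whole numbers with no normalization. Per the submitters' processing notes, HTSeq, DESeq2 and mm10 were used, with no versions or roles; the kit was stranded, per the labels' protocols, and aligner, annotation and strand setting: not given in the sources used here. Identifiers were matched to GENCODE M21 (49326 of 49585 genes).

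Counts were tested in R 4.3.3 with edgeR 4.0.16 (filterByExpr, TMM scaling, robust quasi-likelihood fit with 1 mean per group over all 12 libraries, two-sided, Benjamini-Hochberg over all genes tested, threshold 0.05). DESeq2 1.42.0, limma 3.58.1 (voom), RLE scaling, TMM without the 50 most abundant genes, no filter and omission of each library, of N3 and K4, and of N3, K4 and C3 were alternatives. The fit was tested on simulated data. CPM used TMM library sizes. Tables and figures used Python 3.11.15, pandas 2.3.3, NumPy 2.4.6 and matplotlib 3.10.9.

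The members and all lists were chosen with earlier results of these data known. All 33 members are described; from each further list at most 4 genes were named, those called with the largest fold change, or else the 2 most abundant. Genes named beyond this rule (Adipoq, Ccl19, Ccl21a, Chil3, Cxcl13) were chosen after their values were seen. No 2 libraries held identical counts.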

Additional observations from a re-analysis of the deposited data

How the results depend on the processing

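With all 12 libraries 1 member was called between cerulein and saline in wild type, against 4399 of all 14329 genes. RLE scaling and scaling without the 50 most abundant genes also gave 1, against 4314 and 4434 genes. DESeq2 gave 2 and voom 0, against 4993 and 4019 genes. No filter gave 0, against 3428 of 25628 genes. Omission of N3 and K4 gave 2, against 3360 genes, and omission of N3, K4 and C3 gave 3, against 5899. Leaving out each library in turn gave 0 to 2, against 1841 to 5583 genes. In Atf3-/- labelled mice the count was 0, as for all genes, and 2 without N3, K4 and C3, against 4319 genes. In the average over both labels it was 0, against 5485 genes. It was 4 without N3 and K4, against 4692 genes, and 7 without N3, K4 and C3, against 7347. Over single omissions it was 0 to 7, against 4193 to 7070 genes. The 7 came without N3 (C1qc, Cd79a, Cd79b, Cr2, Igkc, Jchain and Ms4a1, all lower), against 5699 genes, of which 2389 were lower. A rule of 3 times in place of 2 left 6 members standing in N3 and 2 in K4.

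Of the 30 wild-type log2 fold changes, 9 turned negative under voom, 18 without N3 and K4, 18 without N3, K4 and C3, and 15 without N3. Under voom, without N3 and K4, and without N3, K4 and C3, the values were -1.41, -2.80 and -2.78 for Cd79a, -2.07, -4.59 and -4.57 for Cd79b, -0.69, -2.61 and -2.60 for Ighm, and -1.16, -3.13 and -3.12 for Ms4a1. Without N3 and K4, and without N3, K4 and C3, they were -0.034 and -0.032 for Ptprc, -0.029 and -0.034 for S100a8, and -0.35 and -0.36 for S100a9. Over single omissions they ran from -2.75 to 1.60 for Cd79a, -4.54 to 1.10 for Cd79b, -2.58 to 2.22 for Ighm, -3.08 to 1.82 for Ms4a1 and -0.31 to 1.92 for S100a9, the lowest each without N3. The cause was not tested. No member changed sign under the other scalings in wild type. With 3 animals per group and 1 of them far from the others, the error of the neutrophil and B cell fold changes is large, and genes with few counts, such as Cd3e, are limited by depth. Leaving out N3 and K4 removes libraries singled out by these same genes, and C3 was set aside for its lack of the wild-type response, so the calls without them are not independent. No paired analysis was possible because the labels give no replicate numbers that link animals across groups.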

Other observations

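Other blood cells gave different orders of the libraries. Of 22 such genes 11 were tested, and 12.8% of all genes were called lower in wild type after cerulein. The 5 erythroid genes summed to 30.3 CPM in N3 and 23.4 CPM in C3, the lowest values, and to 262 CPM in K4, the highest, so N3 and K4 lay at opposite ends for red cell RNA. Of 4 mast cell genes, Kit, the receptor of stem cell factor, was lower in wild type after cerulein, with 1.80, 2.42 and 3.40 CPM in O1, O3 and N3, against 6.08, 9.09 and 8.59 CPM in W1, K5 and R3 (edgeR log2 fold change -1.64 ± 0.52, adjusted p = 0.0354), and was not called without N3 and K4 (-1.95 ± 0.66, adjusted p = 0.059). With the Atf3-/- label Kit had 1.70, 8.07 and 2.03 CPM in C2, C3 and L4, against 9, 7.75 and 10.2 CPM in S1, K4 and Q1. C3 again lay with the saline libraries. Cpa3, the mast cell carboxypeptidase, was highest in K4 (6.5 CPM) and was lower with cerulein in the average over both labels (-1.57 ± 0.56, edgeR adjusted p = 0.0478), but not in wild type alone (-0.13 ± 0.78, adjusted p = 0.915). In that average 15.5% of all genes were called lower.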
